A study of Drosophila melanogaster with 5 samples.

Results

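RNA-seq profiles of Drosophila melanogaster testes taken 8 h and 16 h after a heat shock (post heat shock, PHS) were compared gene by gene. Every gene with at least 10 CPM (normalized reads per 1000000) in at least 1 of these libraries was included, which gave 6672 of the 14819 genes in the authors' table (45.0%). Of these, 6464 reached 10 CPM at both times, 128 at 8 h alone and 80 at 16 h alone, so that the last 2 sets had to be lower and higher at 16 h, respectively. At the edge of this rule, CG12811 was included at 10.0 CPM and CG6763 was left out at 9.97 CPM. All 5 libraries of the time course (no heat shock, called no HS, and 8, 16, 24 and 32 h PHS) came from hs-bam; bam[1]/bam[86] males. The heat-shocked groups were shifted, as pupae of mid or late stages, to a high temperature for a short time and then returned to the rearing temperature. Each library was made from polyA+ RNA of a pool of testes with their seminal vesicles, with 1 library per time, and RNA-seq of heat-shocked testes without hs-bam was not analysed here. No spread between replicates could thus be estimated, and p-values are not reported. The no HS library differs from both others by the heat shock and by time, whereas the 8 h and 16 h libraries were both heat-shocked and differ in the time since. The age of the animals may differ along with that time.

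In the fly testis, germ line stem cells produce spermatogonia, which divide a limited number of times and then pass through a last S phase to become spermatocytes. Bag of marbles (Bam) is the protein that spermatogonia need in order to leave the mitotic program, and bam mutant testes fill with spermatogonia that keep dividing. The hs-bam transgene places bam under a heat shock promoter, which is active in somatic cells as well as in germ cells, so that a heat shock gives a burst of Bam. The interval from 8 h to 16 h PHS lies after that burst and before the times at which early spermatocyte transcripts appear, and the comparison asks which transcripts differ over this step.

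The 8 h library held 26534001 reads on annotated features and the 16 h library 21461541, so that 1 CPM was worth 26.8 and 21.1 reads, respectively. The other libraries held between 10356663 reads (no HS) and 28766676 reads (24 h). Changes are differences of log2(CPM + 1), 16 h minus 8 h, and a gene was called higher or lower when its difference was beyond 1, which is 2-fold. Intervals in the text are 95% Clopper-Pearson intervals of the log2 ratio of CPM without the added 1, computed from the reads of both libraries. Such an interval holds no more than counting error, because PCR copies are not independent molecules, and the intervals compare these libraries and not the conditions. Where 5 levels of a gene follow each other they are in time order, from no HS through 8, 16 and 24 h to 32 h PHS. In RNA from whole testes, fewer cells of a type and less RNA per cell cannot be told apart.

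Few genes changed between 8 h and 16 h PHS. Of the 6672 genes, 13 fell by more than 2-fold (0.195%) and 6 rose (0.0899%), and 99.7% stayed within 2-fold. The median difference was −0.02 with a standard deviation over genes of 0.22, and 90% of the genes lay between −0.38 and 0.28. At a threshold of 1.5-fold the numbers were 117 lower (1.75%) and 23 higher (0.345%). By any amount, 3603 genes were lower (54.0%) and 3069 were higher (46.0%). Counts of lower and higher genes in the gene lists are to be read beside these shares. The differences were widest among weakly expressed genes. Where the higher of both levels was 10 to 30 CPM, the standard deviation was 0.29 over 1608 genes, against 0.16 over the 1722 genes at 100 to 300 CPM. Of the genes past 2-fold, 6 of the 13 lower and 1 of the 6 higher reached 10 CPM at both times. The counting interval lay wholly past 2-fold for 10 of the 13 and for 6 of the 6. Nearest the threshold, CG13148 was called lower at −1.002 and stet was not at −0.995, while Ant2 was called higher at 1.08 and 18SrRNA-Psi:CR41602 was not at 0.84.

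**Figure D1:**
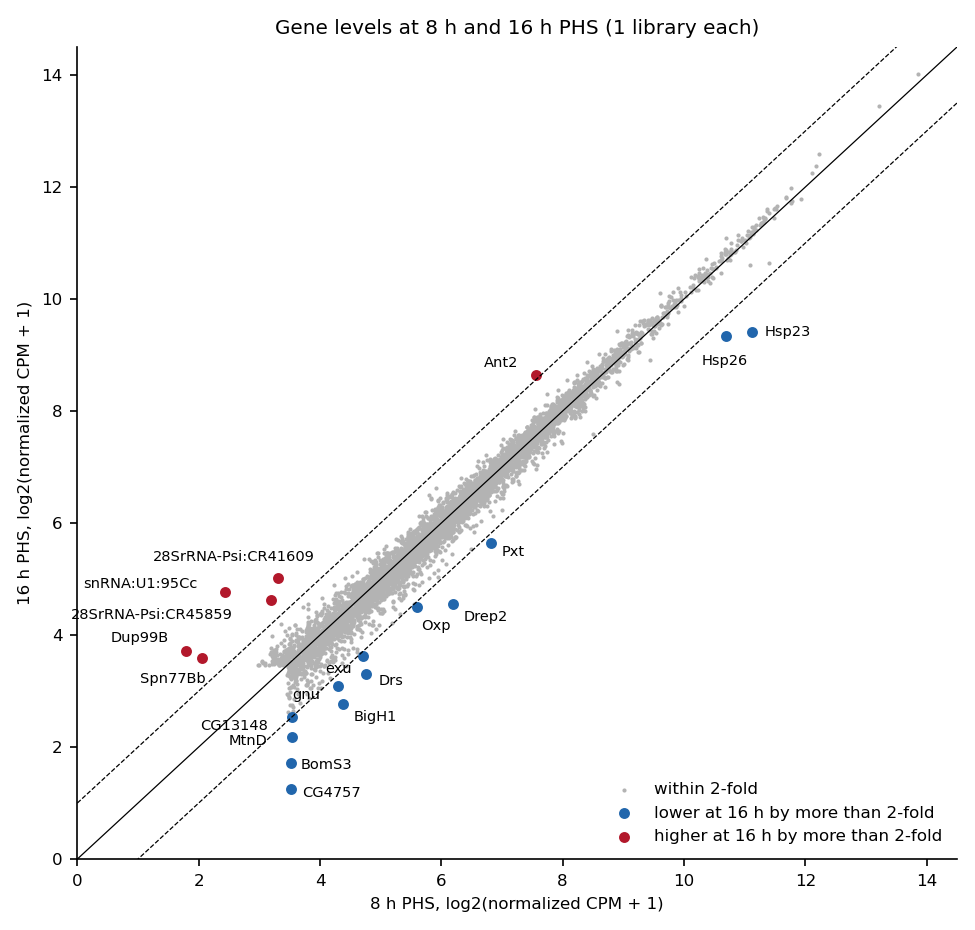
Level of each of the 6672 genes at 8 h PHS (x axis) and 16 h PHS (y axis), both as log2(normalized CPM + 1), with 1 library at each time. The solid line marks equal levels and the dashed lines 2-fold. The 13 genes called lower (blue) and the 6 called higher (red) are named, and Hsp23, Hsp26 and Ant2 stand apart among highly expressed genes.

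Set beside the other successive steps of the time course, this interval had the fewest genes higher by more than 2-fold. At that threshold it had as many lower genes as the step before it. From no HS to 8 h, 13 genes were lower (0.195%) and 10 higher (0.150%) by more than 2-fold among 6668. From 16 h to 24 h, 9 were lower (0.135%) and 20 higher (0.301%) among 6646, and from 24 h to 32 h, 1 was lower (0.0150%) and 50 higher (0.748%) among 6683. At 1.5-fold this interval had the most lower genes, 117, against 47 from no HS to 8 h, 80 from 16 h to 24 h and 38 from 24 h to 32 h. Its higher genes numbered 23 at 1.5-fold, against 71, 64 and 95 in the same order. Neighbouring intervals share a library, and these differences in number were not tested.

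The genes that fell from 8 h to 16 h PHS formed 2 kinds by their course over the 5 libraries. The first kind, 6 of the 13, was past 2-fold above its no HS level at 8 h and much closer to it at 16 h. It held small heat shock protein genes, immune peptide genes, a metallothionein gene and CG4757. Hsp23 (FBgn0001224, chromosome 3L from 9381882 to 9382765 in the BDGP6.54 annotation), which encodes a small heat shock protein that holds unfolding proteins in solution, had 424, 2229, 682, 643 and 652 CPM. The 8 h library stood far above the other 4, and the 3 later libraries stayed above no HS. The difference was −1.71 with an interval of −1.74 to −1.68, and 30.6% of the 8 h level was left at 16 h.

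Hsp26 (FBgn0001225, chromosome 3L from 9376418 to 9377427), a second gene of the small heat shock protein family in the same chromosomal cluster, had 570.4, 1663, 646, 772 and 939 CPM in the same order. It too was highest at 8 h, with a difference of −1.36 to 16 h (interval −1.39 to −1.34), and its later levels stayed above no HS. Hsp68, which encodes an inducible chaperone of the Hsp70 family, had 120.1, 361, 193, 128 and 138 CPM, a difference of −0.90 that is short of the call. Hsp27, a further small heat shock protein gene of that cluster, had 1435, 2710, 1589, 2599 and 2726 CPM. Its 16 h level was low beside both neighbouring times (−0.77), unlike that of Hsp23, which did not come back up at 24 h.

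Over the heat shock and chaperone list, 12 of the 19 genes in the table were included. Of the 12, 8 were lower at 16 h (66.7%), where 54.0% of the 6672 genes were. The list median was −0.12, beside −0.02 over the 6672 genes. The 2 past 2-fold were Hsp23 and Hsp26. The chaperone genes that cells express without stress had other courses. Hsc70-4, the main constitutive Hsp70 family chaperone, was at 4815 CPM at 8 h and 6134 at 16 h (0.35), and Hsp83, the fly Hsp90, at 3877 and 3524 CPM (−0.14). The co-chaperone gene Droj2, which was named after its values were seen, was at 774 and 1098 CPM (0.50).

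Drs, which encodes the antifungal peptide drosomycin, had 11.4, 26.1, 8.83, 10.9 and 9.46 CPM. BomS3, a Bomanin peptide gene controlled by the Toll immune pathway, had 2.34, 10.5, 2.28, 1.75 and 2.03 CPM. Both were high in the 8 h library alone, and fell by 1.47 and by 1.80 on the log2 scale to 16 h (intervals −1.81 to −1.33 and −2.67 to −1.75). Both were also included through the 8 h library alone, so that their direction was fixed. The other 18 genes of the immune peptide list were below 10 CPM at both times. Summed over all 20, Drs and BomS3 among them, the list had 35.6, 78.3, 24.0, 29.8 and 29.2 CPM. The 8 h library had the highest sum, to which these 2 genes contribute.

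MtnD, which encodes a metal-binding metallothionein, had 4.28, 10.6, 3.56, 6.65 and 3.72 CPM and fell by 1.34 (interval −1.96 to −1.20). MtnA, the abundant metallothionein gene of the same family, was at 2869 CPM at 8 h and 2807 at 16 h (−0.03), so that the family did not move as 1. CG4757 had the lowest difference of the 6672 genes at −2.28 (interval −3.54 to −2.38). Its levels were 1.07, 10.5, 1.38, 2.10 and 1.06 CPM, high in the 8 h library and between 1.06 and 2.10 CPM in the other 4. MtnD and CG4757 were both included through the 8 h library alone, so that their direction was fixed.

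The other 7 lower genes were not above no HS by 2-fold at 8 h, and all 7 were lower again at 24 h. Several of them are known for functions in the germ line. Drep2 (FBgn0028408, chromosome 2R from 9291856 to 9302821), which is related to the DNA fragmentation factors of apoptosis, had 151, 72.3, 22.4, 15 and 22 CPM. It was thus lower at each step to 24 h, with −1.64 from 8 h to 16 h (interval −1.84 to −1.54). The other 5 included genes of the cell death list, among them the caspase genes Drice and Dcp-1 and the inhibitor gene Diap1, lay between −0.03 and 0.22.

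BigH1 (FBgn0038252, chromosome 3R from 14663450 to 14664822), which encodes the linker histone of germ cells and early embryos, had 31.7, 19.9, 5.79, 4.62 and 12.3 CPM. It fell by 1.62 (interval −2.07 to −1.49) and was higher again at 32 h. Pxt (FBgn0261987, chromosome 3R from 17719454 to 17722955), which encodes a cyclooxygenase-like peroxidase needed in oogenesis, had 112, 112, 48.9, 23.5 and 16.2 CPM. Its level was the same in no HS and at 8 h, and 16 h was the first library in which it was lower, with −1.18 (interval −1.30 to −1.10). Oxp, a gene of the HP1 chromatin protein family, had 53.0, 47.3, 21.6, 14.7 and 14.7 CPM (−1.10, interval −1.29 to −0.98). CG13148, at the threshold, had 12.4, 10.6, 4.79, 3.26 and 3.67 CPM. For these 4 genes the libraries fell into a high pair (no HS and 8 h) and a low set of 3 from 16 h on, with BigH1 at 32 h in between. BigH1 and CG13148 were included through the 8 h library alone, so that their direction was fixed.

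**Figure D2:**
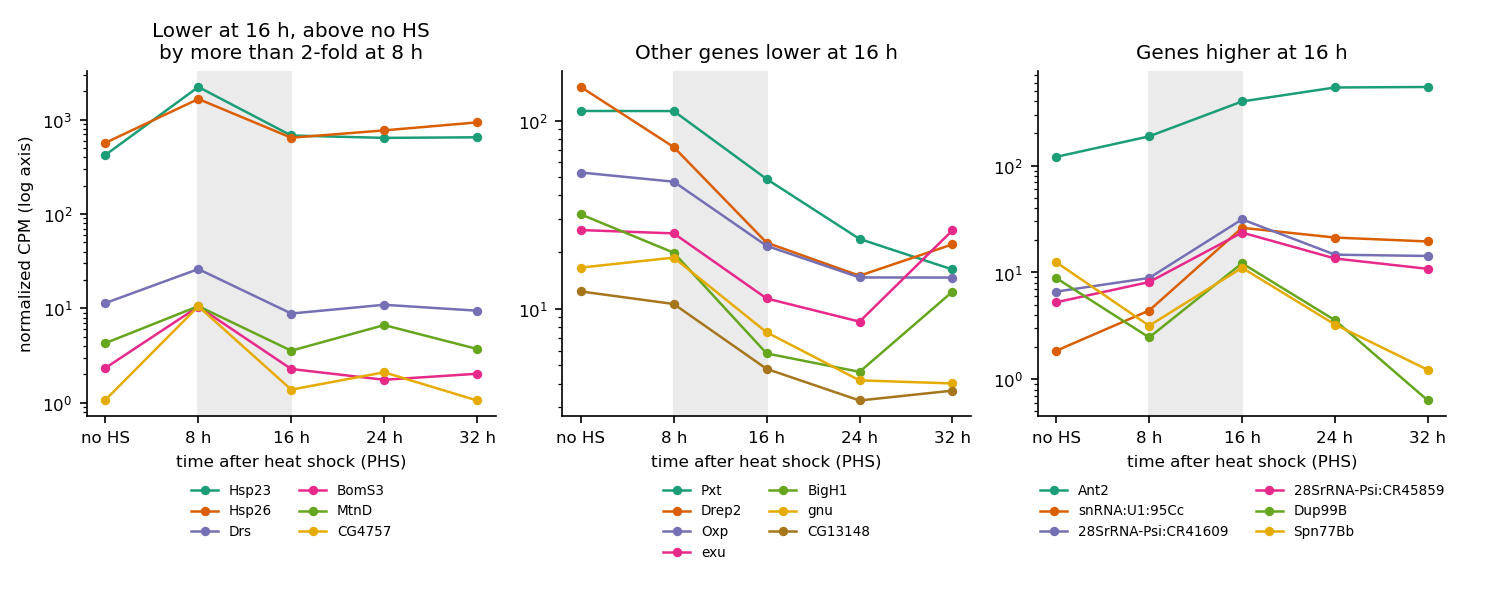
Normalized CPM (log axis) in the 5 libraries, in time order, for the 19 genes past 2-fold between 8 h and 16 h PHS (shaded), with 1 point per library. The left panel holds the 6 lower genes that at 8 h were past 2-fold above no HS, the middle panel the other 7, all of them lower again at 24 h, and the right panel the 6 higher genes, of which Ant2 alone kept climbing.

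The remaining called genes, gnu and exu, are known from the oocyte and early embryo. gnu, which encodes an activating subunit of the Png kinase that drives the first embryonic cell cycles, had 16.6, 18.7, 7.50, 4.17 and 4.01 CPM (−1.21, interval −1.59 to −1.06). exu, which encodes a protein that localizes bicoid RNA in the oocyte and also acts in spermatogenesis, had 26.2, 25.2, 11.3, 8.54 and 26.1 CPM (−1.08, interval −1.37 to −0.93). gnu stayed low to the end of the series, while exu was back at its no HS level at 32 h. Of the exonic bases of exu, 12.1% are shared with another gene, and its reads may be shared as well.

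These genes prompted a list of 21 egg and oocyte genes that was written after the values had been seen. Of its 14 included genes, 5 (gnu, alphaTub67C, fs(1)M3, wisp and clos) passed 10 CPM through the 8 h library alone, so that their direction was fixed. Of the 9 that passed at both times, 8 were lower, with a median of −0.58, beside −0.02 over the 6672 genes. The genes past 2-fold were gnu and exu, for which the list was made, so that it is no independent support for them. yl, which encodes the yolk protein receptor of the oocyte, had 99.9, 88.5, 45.6, 25.2 and 30.4 CPM (−0.94). fs(1)N, needed for the vitelline membrane of the egg, had 39.7, 39.0, 19.7, 13.1 and 13.0 CPM (−0.95). Both had roughly the 8 h level in no HS and were lower at 16 h and again at 24 h. Smaller negative differences were found for alphaTub67C, a maternal tubulin (−0.77), png, the kinase that gnu activates (−0.73), dhd, the thioredoxin of the egg (−0.58), and wisp, a cytoplasmic poly(A) polymerase of the egg (−0.53). The exception was tor, the receptor of embryonic terminal patterning, at 24.2 and 26.9 CPM (0.15).

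Genes of meiotic pairing and recombination, also listed after the values had been seen, were mostly lower. Of the 15 included genes 11 were lower (73.3%) and 4 higher, where 54.0% of the 6672 genes were lower. The median was −0.32, and 0 were past 2-fold. cona, which encodes a protein of the central region of the synaptonemal complex, had 60.4, 60.8, 31.7, 22.2 and 43.2 CPM (−0.92). c(3)G, which encodes the transverse filament of the same structure, had 32.8, 40.2, 24.2, 15.8 and 13.0 CPM (−0.71). For c(3)G and cona the no HS and 8 h libraries were above 16 h and 24 h. narya and vilya, which encode RING-finger proteins of crossing-over in females, differed by −0.83 and −0.52, and narya was included through the 8 h library alone. The 4 higher genes were okr, spn-B, solo and mei-W68, at 0.02 to 0.11.

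The piRNA pathway, in which Piwi-family proteins bound to small RNAs silence transposons in the germ line, showed small differences of mostly 1 sign. On a list made after the values were seen, 22 of 23 genes were lower at 16 h, with a median of −0.18 and a range of −0.72 to 0.00. piwi itself had 149.7, 114.6, 69.2, 53.0 and 44.1 CPM, lower at every step, with −0.72 from 8 h to 16 h (interval −0.82 to −0.64). spn-E, an RNA helicase gene of the pathway, had 213, 187, 124, 104 and 119.7 CPM (−0.59). moon, which encodes a factor for transcription of piRNA clusters in the ovary, was at 11.4 and 6.74 CPM (−0.68), included through the 8 h library alone. In contrast aub, which encodes another Piwi-family protein, differed by −0.07, and vas, which encodes the germ cell helicase Vasa, was at 316 and 299.7 CPM (−0.08).

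Of the 12 germ line identity genes, 9 were lower (75%) and 3 higher, where 54.0% of the 6672 genes were lower. The median was −0.08, and 0 were past 2-fold. The lower end held piwi, tej (−0.56), a Tudor-domain gene of the piRNA pathway, and Phf7 (−0.37), a histone reader of male germ cells. The remaining genes lay between −0.16 and 0.09. Summed over the list, the levels were 3922, 4011, 3828, 3620 and 3572 CPM. The highest value of a single member was 1138 CPM at 8 h and 1210 CPM at 16 h, so that highly expressed members weigh most in the sum. This sum differed little between 8 h and 16 h, while single members differed more. It is no measure of the number of germ cells.

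Among bam and the genes that act with it or around it in early germ cells, 9 of 14 were lower (64.3%) and 5 higher. This share is near the 54.0% of all 6672 genes. The median was −0.40, and 2 were past 2-fold (BigH1 and Pxt). BigH1 was included through the 8 h library alone. Of the other 13 genes 8 were lower, with a median of −0.30. bam (FBgn0000158) had 64.7, 128, 90.4, 74.2 and 60.5 CPM. Its highest level was at 8 h and its level at 32 h was near that of no HS, with −0.50 from 8 h to 16 h (interval −0.58 to −0.42). Reads of the transgene and of the mutant alleles cannot be told apart in these values. tut, which encodes a partner of Bam, had 13.6, 25.7, 20.7, 19.6 and 12.4 CPM (−0.30), a course like that of bam, and bgcn, the other partner gene, had 314, 197, 187, 202 and 232 CPM (−0.07).

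how, which encodes an RNA-binding protein of the STAR family, had 226, 106, 113, 122 and 134 CPM. Its low level at 8 h was thus held at 16 h, with a difference of 0.09 (interval 0.01 to 0.17). mei-P26, a TRIM-NHL gene of germ cell differentiation, was at 182 and 195.2 CPM (0.10), and chinmo, a transcriptional repressor gene, at 196 and 237 CPM (0.28). ovo and otu, both known from germ line sex and oogenesis, differed by −0.59 and −0.64. ovo had 367, 154, 103, 99.7 and 145 CPM, with most of its difference before 8 h. zpg, the germ line gap junction gene, had 161, 190.2, 129.8, 103 and 63.5 CPM (−0.55).

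stet, just short of the call at −0.995, encodes the rhomboid protease with which germ cells release an EGF ligand to the surrounding cyst cells. Its levels were 66.9, 46.0, 22.6, 12.5 and 12.6 CPM, lower at each step to 24 h and then level. Of the other 9 included genes of the EGFR list, Egfr itself was at 0.13 and the ligand genes spi and vn at −0.23 and 0.00. The list also holds ras (FBgn0003204, chromosome X, −0.15), which is not the pathway gene Ras85D (0.11). The subunit genes of CCR4-NOT, the deadenylase complex, lay between −0.09 and 0.25 (8 genes, median 0.03). Not1, its scaffold, was at 1265 and 1506 CPM (0.25), and none of the 8 was past 2-fold or 1.5-fold.

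DNA replication genes were lower at 16 h throughout the list, by less than 2-fold. All 28 listed genes were included and 28 of 28 were lower, where 54.0% of the 6672 genes were. Prim1 was included through the 8 h library alone, and the other 27 reached 10 CPM at both times. The median was −0.34 and the range −0.84 to −0.03. The counting interval lay below 0 for 26 of 28, with geminin and Fen1 the exceptions, and for 1966 of all 6672 genes. Summed over the list, the level was 4698, 4790, 3809, 2280 and 1977 CPM. The no HS and 8 h libraries were thus alike, and 16 h was the first lower library of a course that went on to 32 h.

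The genes that license origins were spread over the list. Orc6, a subunit of the origin recognition complex, had 32.1, 36.8, 21.0, 16.5 and 14.1 CPM (−0.78, interval −0.97 to −0.65). Mcm5, a subunit of the replicative helicase, had 227, 252, 171, 87.0 and 70.3 CPM (−0.56, interval −0.62 to −0.50), and dup, which encodes the loading factor Cdt1, had 175, 203, 144, 68.04 and 58.2 CPM (−0.49). These 3 had their highest level at 8 h. Other genes of this step differed less, with Mcm6 at −0.32, Mcm3 at −0.22, Cdc6 at −0.19 and Orc2 at −0.15. geminin, which encodes the inhibitor of Cdt1, was at 293 CPM at 8 h and 284 at 16 h (−0.04) and at 172 CPM at 24 h.

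Of the fork components, Prim1, a primase subunit gene, had 12.2, 12.8, 6.69, 5.78 and 4.05 CPM (−0.84, interval −1.23 to −0.64), the lowest difference of the list but with 342 and 141 reads. PCNA, the sliding clamp, had 504, 488, 357, 204 and 178 CPM (−0.45, interval −0.49 to −0.41). Fen1, the flap endonuclease, was at 70.4 and 68.9 CPM (−0.03). Among the enzymes of nucleotide supply, RnrS, the small subunit of ribonucleotide reductase, had 262, 251, 176, 76.6 and 61.4 CPM (−0.50), and RnrL, the large subunit, was at −0.47. Of the genes that control entry into S phase, CycE was at 245 and 198 CPM (−0.31), near the list median, and E2f1 at 279 and 261 CPM (−0.10). Mcm7 (−0.53) shares 81.7% of its exonic bases with another gene, and its value is uncertain.

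A list of 23 further replication genes, written after the values had been seen, gave 23 of 23 lower with a median of −0.34 and a range of −0.65 to −0.10. It held Ts, thymidylate synthase, with 122, 111, 73.4, 33.9 and 28.2 CPM (−0.59), and dnk, the deoxyribonucleoside kinase of flies, with 141, 127, 90.9, 52.5 and 41.1 CPM (−0.48). Summed, this list had 2157, 2084, 1690, 1261 and 1152 CPM.

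**Figure D3:**
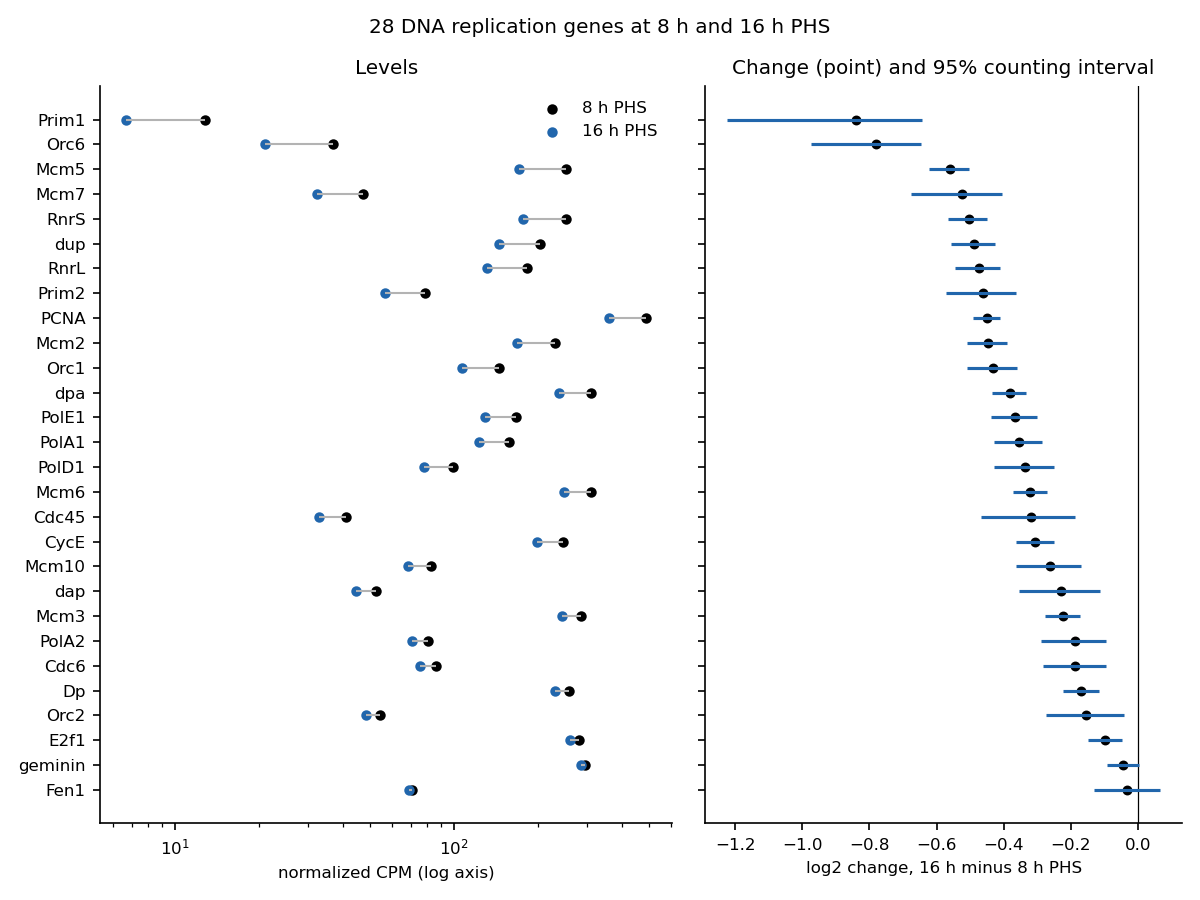
Left, normalized CPM (log axis) of the 28 DNA replication genes at 8 h PHS (black) and 16 h PHS (blue). Right, the difference of log2(CPM + 1), 16 h minus 8 h (points), with the 95% counting interval of the log2 ratio (lines). Every point lies below 0, from −0.84 for Prim1 to −0.03 for Fen1, and 26 of the 28 intervals do. Over all 6672 genes, 1966 intervals lay below 0.

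Mitosis genes differed less. Of 20 included genes 18 were lower and 2 higher, with a median of −0.15, and 15 intervals lay below 0. Over all 6672 genes, 54.0% were lower and 1966 intervals lay below 0. aurA, the centrosomal mitotic kinase, had 82.4, 79.2, 57.8, 46.2 and 37.3 CPM (−0.45), and borr, a chromosomal passenger complex gene, had 130.1, 126, 93.5, 67.7 and 57.4 CPM (−0.42). Both were level from no HS to 8 h and lower from then on. CycB had 199, 193, 162, 84.9 and 69.96 CPM (−0.25), with most of its difference after 16 h. CycA, the other mitotic cyclin named here, was at 328 and 324 CPM (−0.01), and polo and Bub1 were at 0.03 and 0.01. Whether the replication genes differed more than the mitosis genes was not tested.

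Early spermatocyte genes were still at low levels at 16 h. kmg, which encodes a spermatocyte zinc-finger repressor, had 2.63, 2.20, 3.56, 51.5 and 73.8 CPM. Rbp4, an RNA-binding protein gene of spermatocytes, had 4.19, 6.31, 4.94, 133 and 399.6 CPM. Both were below 10 CPM in the first 3 libraries and far above that at 24 h. Of the 15 listed spermatocyte genes 7 were included, and 7 of 7 were lower at 16 h than at 8 h, with a median of −0.30 (−0.29 without topi, which was included through the 8 h library alone). topi and tomb, which encode subunits of the testis meiotic arrest complex tMAC, gave the lowest values. topi had 18.3, 16.9, 8.35, 5.43 and 36.2 CPM (−0.94, interval −1.28 to −0.76), and tomb had 30.4, 24.3, 16.1, 19.1 and 52.9 CPM (−0.57). For both, 16 h lay below no HS and 32 h above it. The 11 spermatid genes in the table were below 10 CPM, with a sum of 3.25 CPM at 8 h and 2.80 at 16 h, as in a testis without spermatids.

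Markers of other cells of the dissected tissue differed by small amounts. Most were higher in the muscle, cyst cell, blood cell and midgut lists, where 46.0% of the 6672 genes were higher. The fat body list held 1 lower and 1 higher gene, and the pigment list 1 lower gene. Of 16 muscle genes 13 were higher and 3 lower, with a median of 0.14, and the list summed to 2333 CPM at 8 h and 2636 at 16 h. Mhc, the muscle myosin heavy chain, had 365, 407, 490.3, 504 and 505 CPM (0.27), and bt, a titin-like protein gene of muscle, had 74.5, 102, 135, 152 and 136 CPM (0.41). Of 9 cyst cell genes 7 were higher (median 0.13). eya and tj, which encode transcription factors of the cyst lineage, were at 33.1 and 43.2 CPM (0.37) and at 14.1 and 18.03 CPM (0.34). The 4 included genes of the blood cell list, Col4a1, vkg, srp and Pxn, were all higher (median 0.22). The other 7 were below 10 CPM at both times, with Hml at 7.73 and 8.45 CPM and NimC1 at 0.821 and 1.14 CPM. Whether the 4 included genes stand for blood cells was not tested. The fat body list had 2 included genes (median −0.17), Mtp at −0.38 and 1 higher gene at 0.04. All its genes summed to 64.6 CPM at 8 h and 53.7 at 16 h. The list of pigment genes had 1 included gene, bw (−0.12), and summed to 123 and 115.5 CPM. Both midgut genes included, the near-identical amylase copies Amy-p and Amy-d, were higher (0.26 and 0.23). None of the genes in these lists was past 1.5-fold, and their part in the lower levels of germ line and replication genes was not tested.

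Signalling genes showed small differences. Of 10 BMP pathway genes 8 were higher, with a median of 0.12, among them the ligand gene dpp (0.29) and its feedback inhibitor Dad (0.35). dpp was included through the 16 h library alone, so that its direction was fixed. Of the other 9 BMP genes 7 were higher. All 9 included ecdysone response genes were higher, with a median of 0.17, where 46.0% of the 6672 genes were higher. Eip74EF was included through the 16 h library alone, and the median of the other 8 was 0.17 too. Eip75B, an early response gene of the hormone, had 70.6, 62.4, 86.2, 94.9 and 93.5 CPM (0.46). The median of the JAK-STAT and niche list was 0.00 over 10 genes. These ecdysone genes are long, and genes of like exonic length had a median of 0.12.

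**Figure D4:**
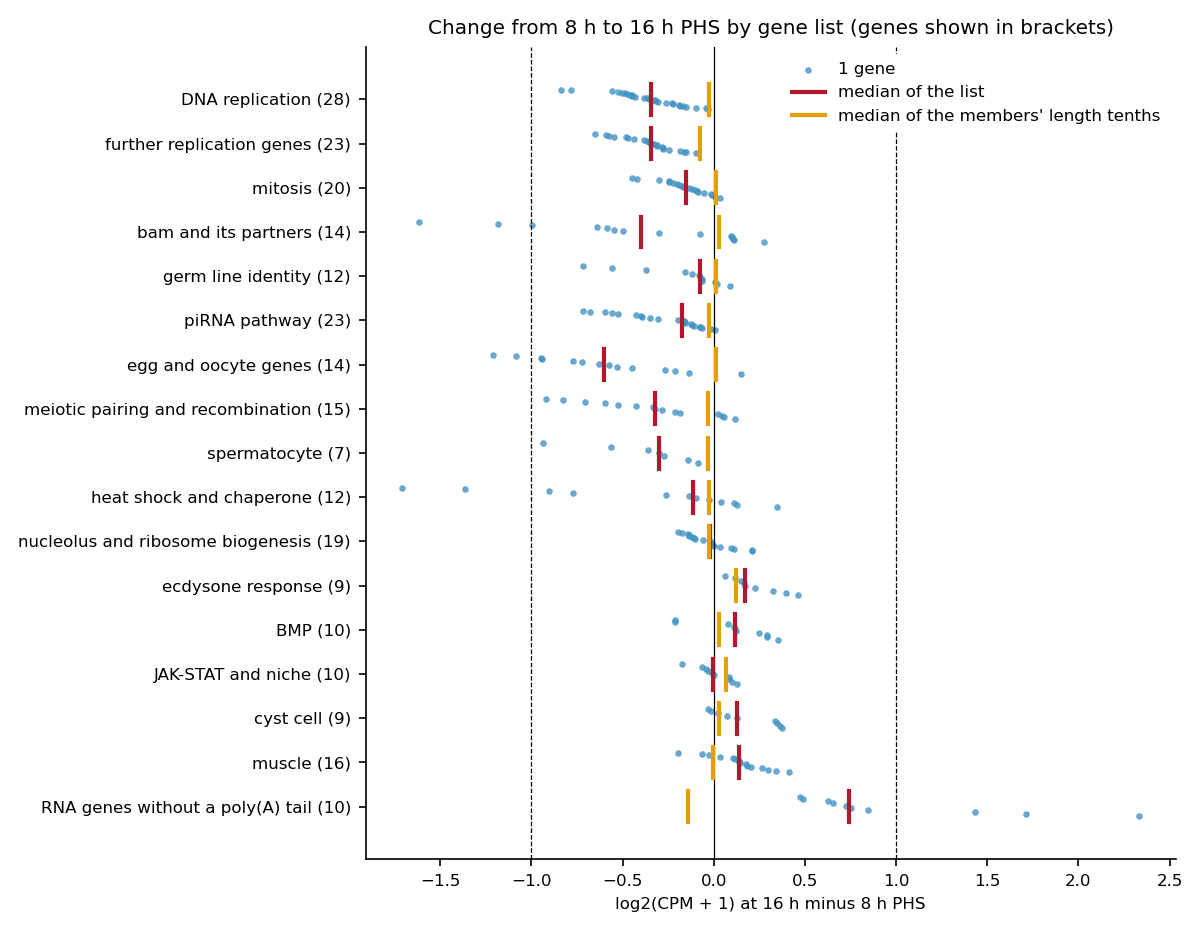
Difference of log2(CPM + 1), 16 h minus 8 h PHS, for each included gene (points) of 17 gene lists, with the list median (red bar) and the median of the length groups its members belong to (yellow bar). Dashed lines mark 2-fold. The replication, egg, meiosis and spermatocyte lists lie to the left, with medians from −0.60 to −0.30. Of the 14 egg genes, 5 were included through the 8 h library alone, and the median of the other 9 was −0.58. The 10 RNA genes without a poly(A) tail, 5 of them included through the 16 h library alone, lie to the right. The egg, meiosis, piRNA, further replication and poly(A) lists were written after the values had been seen.

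Ant2 (FBgn0025111, chromosome X from 10778954 to 10786907), which encodes an ADP/ATP carrier of the inner mitochondrial membrane, had 121, 188, 399, 539 and 545 CPM. It was higher at each step, with 1.08 from 8 h to 16 h (interval 1.04 to 1.14), and it was the 1 called higher gene with at least 10 CPM at both times. sesB, the neighbouring carrier gene that overlaps it, had 524, 486, 417, 395 and 369 CPM (−0.22), lower at each step. Of the exonic bases of Ant2, 9.05% are shared with another gene, so that part of the reads of this pair may be uncertain.

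Dup99B, which encodes a sex-peptide-like protein of the ejaculatory duct, had 8.86, 2.46, 12.2, 3.57 and 0.633 CPM (1.93, interval 1.91 to 2.72). Spn77Bb, a serpin gene, had 12.5, 3.17, 11.1, 3.26 and 1.22 CPM (1.53, interval 1.44 to 2.18). Both were high in the no HS and 16 h libraries and low in the other 3, so that 16 h was not above no HS by 2-fold for either. Est-6, the other included gene of the ejaculatory duct and bulb list, was at 94.3 and 104 CPM (0.14), and the 5 listed genes summed to 101.0 CPM at 8 h and 121 at 16 h. The accessory gland list summed to 0.411 and 0.427 CPM, where 3 reads were worth 0.112 and 0.142 CPM. The part of duct tissue in the Dup99B and Spn77Bb values was not tested.

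Below the 2-fold call, esg, which encodes a Snail-family transcription factor of the hub and the cyst stem cells, had 13.2, 12.1, 21.7, 23.9 and 19.3 CPM (0.79, interval 0.63 to 1.05). The 3 libraries from 16 h on were above the first 2. CG5162 had 18.2, 8.29, 14.9, 9.17 and 7.26 CPM (0.78), with the same high libraries as Dup99B.

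The other 3 called higher genes give RNAs that carry no poly(A) tail. snRNA:U1:95Cc, a gene for the U1 RNA of the spliceosome, had 1.85, 4.40, 26.2, 21.2 and 19.5 CPM (2.33, interval 2.28 to 2.87). The ribosomal RNA pseudogenes 28SrRNA-Psi:CR41609 and 28SrRNA-Psi:CR45859 had 6.62, 8.88, 31.4, 14.7 and 14.3 CPM (1.71) and 5.26, 8.14, 23.6, 13.5 and 10.8 CPM (1.43). All 3 have near-identical copies in the genome. The authors discarded reads of low mapping quality, so that reads which match several copies may be missing. The values of these 3 genes are uncertain. snRNA:7SKa, which encodes the RNA that holds the elongation factor P-TEFb inactive, had 42.5, 59.0, 98.2, 54.9 and 49.6 CPM (0.73). RNaseMRP:RNA and RNaseP:RNA, the RNA subunits of enzymes that process ribosomal RNA and transfer RNA, were at 0.75 and 0.63. For all of these the 16 h library was the highest of the 5.

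On a list of such genes made by name after the values had been seen, 10 of 279 were included. Of these, 5 passed 10 CPM through the 16 h library alone, among them the 3 past 2-fold, so that their direction was fixed. The other 5 were higher too, with a median of 0.65. With no filter on low values the median of the 279 genes, most of them with few or 0 reads, was 0.03. The list summed to 171, 247, 453, 313 and 250.0 CPM. The libraries were made from polyA+ RNA, so that the level of these RNAs also depends on how completely the selection removed them. Its part in the result was not tested.

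Genes of translation and protein turnover differed by little. The cytoplasmic ribosomal protein genes were slightly higher at 16 h in 71 of 83 cases, with a median of 0.07, and the mitochondrial ribosomal protein genes were lower in 62 of 70, with a median of −0.13. Of 33 proteasome genes 29 were lower (median −0.16). The nucleolus and ribosome biogenesis list had a median of −0.02 over 19 genes, and the tRNA synthetase list −0.04 over 31. Of the 9 included mitochondrial genome transcripts 5 were higher, with a median of 0.01, and mt:lrRNA, the large mitochondrial ribosomal RNA, was at 2630 and 3112 CPM (0.24). None of the genes in these lists was past 1.5-fold.

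The difference between 8 h and 16 h also moved with the length of the gene. Genes were split into 10 groups of nearly equal size by exonic length, the number of bases covered by any annotated exon. The median ran from −0.14 in the shortest group (140 to 923 bases, 77.7% lower) to 0.12 in the longest (6282 to 71820 bases, 22.2% lower). From 16 h to 24 h the medians ran the opposite way, from 0.07 to −0.09. They also ran downward from no HS to 8 h, from 0.06 to −0.02, and from 24 h to 32 h, from −0.01 to −0.06. The 16 h library belongs to the 16 h minus 8 h and the 24 h minus 16 h steps. It does not belong to the steps from no HS to 8 h and from 24 h to 32 h.

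**Figure D5:**
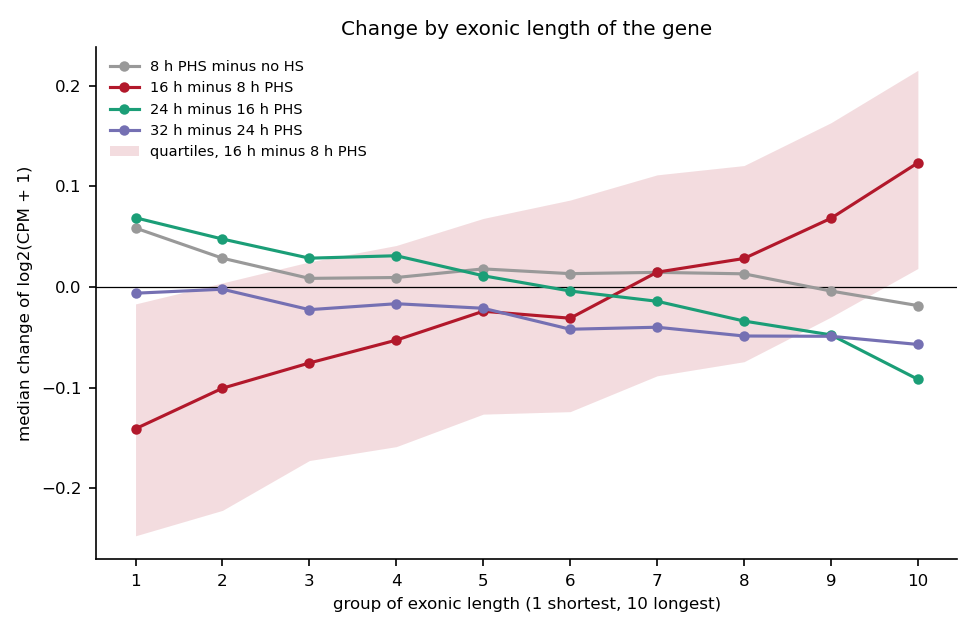
Median difference of log2(CPM + 1) in each group of exonic length (1 the shortest, 10 the longest) for the 4 successive steps, with the quartiles for 16 h minus 8 h PHS shaded. The 16 h minus 8 h median climbs from −0.14 to 0.12, and the 24 h minus 16 h median goes down from 0.07 to −0.09.

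Taking from each gene the median of its own length group moved some lists and left others. The DNA replication median went from −0.34 to −0.37, that of the egg and oocyte list, over its 14 genes, from −0.60 to −0.61, and that of the muscle list from 0.14 to 0.16. The mitochondrial ribosomal protein median went from −0.13 to −0.02 and the proteasome median from −0.16 to −0.06, while that of the cytoplasmic ribosomal proteins, which are also short, went from 0.07 to 0.18. With this step 14 genes were lower and 6 higher by more than 2-fold. The lower ones no longer included CG13148 and Oxp and now included fs(1)N, yl and kirre, the last an adhesion protein gene of myoblasts, with 15.3 CPM at 8 h and 7.36 at 16 h. The part of length in the results was not tested beyond this.

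Of the 117 genes lower by more than 1.5-fold, 32 belong to at least 1 of the gene lists examined and 40 are named by a CG number alone. Of the 23 higher genes, 9 belong to a list and 6 are named by a CG number. Most of the lower genes at this threshold are thus outside the lists, and 75 of the 117 reached 10 CPM at both times. The lists counted here include the egg, meiosis, piRNA, further replication and poly(A) lists, which were written after the values had been seen. The same shares were not computed over all included genes. Whether listed or CG-named genes are more frequent past 1.5-fold than among all included genes was thus not tested.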

How the data were processed

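Trimming with Trim Galore 0.4.3, alignment with STAR 2.5.3 to the BDGP6 genome, filtering with SAMtools 1.4.1, counting per gene with featureCounts of Subread 1.5.0 and TMM normalization with edgeR 3.34.0 under R 4.1.0 were done by the authors, per their methods and processing notes. Whether counting used strand is not given in the sources used here, so that overlapping genes may share reads. The authors deposited log2(normalized CPM + 1). The plan assumed CPM, so the log2 was undone and the added 1 subtracted. In each library 100% of the values were whole multiples of what 1 read is worth, which gave the reads. The tolerance was 0.05 reads or, for larger counts, a small fixed share of the count. At the highest counts any value would pass, so that the match is no check there. Columns without a sample numbered 0.

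Differences of log2(CPM + 1) were taken between the 16 h and 8 h libraries, 1 library each, with a count minimum of 10 CPM and a 2-fold call. This scale understates the change of genes with few reads. Intervals are Clopper-Pearson (scipy 1.17.1, with Python 3.11.15, numpy 2.4.6, pandas 2.3.3 and matplotlib 3.10.9), and the steps were tested on simulated data. Since no variation between libraries can be estimated, no count model was fitted. The named genes are the 15 largest differences each way, the members of the lists and bam, how, kmg and Rbp4. The genes and lists were chosen with earlier results of these data known, and the egg, meiosis, piRNA, further replication and poly(A) lists after the values themselves had been seen, as was the centring by length. Droj2, sesB and kirre were named after their values were seen. Symbols, coordinates and exonic lengths are from BDGP6.54, in which 6664 of the 6672 genes were found. The 2709 transposon features were left out. Alternatives were other pseudocounts, thresholds, filters, scalings and the centring by length.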

Additional observations from a re-analysis of the deposited data

Results flagged for a closer look

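The authors' table also holds 2709 transposon features, which the comparison of genes does not use. Of these, 8 reached 10 CPM at 8 h or 16 h PHS, insertions of HeT-A, 3S18 and G elements, far above the 0.112 and 0.142 CPM that 3 reads were worth. At 16 h 7 of the 8 were lower, with differences from −0.53 to 0.08. Copies of an element are alike in sequence, so that the level of a single insertion is uncertain. Summed over all transposon features, the level was 472 CPM at 8 h and 424 CPM at 16 h PHS.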

How the results depend on the processing

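The number of genes past 2-fold depended on the threshold and the filter more than on the scaling. Against 13 lower genes, the count was 20 with a pseudocount of 0.1 CPM and 8 with 5 CPM, 117 at 1.5-fold and 5 at 3-fold, 31 with a mean of at least 1 CPM, 31 with no filter and 6 with at least 10 CPM in both libraries. Against 6 higher genes, it was 23 at 1.5-fold, 3 at 3-fold, 17 with a mean of at least 1 CPM, 17 with no filter and 1 with at least 10 CPM in both. Rescaling to a total of 1000000, centring on the median ratio and the upper quartile gave 16, 12 and 12 lower and 6 higher genes each.

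The medians given here moved by more than the typical counting error of a gene in the list under the setting named, without a change of sign there. Medians within 0.06 of 0 (CCR4-NOT, cell death, JAK-STAT and niche, EGFR, mitochondrial genome and tRNA synthetases) changed sign under at least 1 alternative. Without a filter they were −0.24 for heat shock and chaperones, 0.11 for blood cells, 0.0669 for snRNA genes (27 genes, most with few reads) and 0.03 for RNAs without a poly(A) tail. With a mean of at least 1 CPM they were −0.19 for heat shock and chaperones and −0.24 for metal response, and with at least 10 CPM in both libraries −0.30 for bam and its partners. Rescaling to a total of 1000000 gave −0.16 for heat shock and chaperones and 0.0336 for cytoplasmic ribosomal proteins. Centring by length, chosen after seeing the data, gave −0.15 for germ line identity, 0.14 for blood cells, 0.13 for the mitochondrial genome, 0.18 for cytoplasmic ribosomal proteins and −0.0605 for the proteasome. The cause of these shifts was not tested. The scalings moved the median of all genes by at most 0.04.

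Among single genes, CG13148, MtnD, Oxp, Spn77Bb, exu and gnu were no longer past 2-fold with a pseudocount of 5 CPM, and stet, topi and CG7724 were past it with 0.1 CPM. No paired analysis was possible because there is 1 library per time and no test between libraries. Nothing here separates the time since heat shock from the age of the animals or from differences between single libraries. Genes under 10 CPM rest on few reads.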
